A study of Mus musculus with 6 samples.

Results

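The gelsolin family is described here in mouse natural killer (NK) cells kept at low oxygen. Its 8 genes (Scin, Gsn, Capg, Flii, Svil, Vil1, Vill and Avil) were taken by symbol from the 56953 genes in the count tables, and all 8 had an entry. The set was drawn up around Scin, whose rise in hypoxia was already known from these libraries, so the Scin difference is given as a description with no test. The other 7 genes came in by family membership. Of the 8, 7 passed the filter on low counts and Vil1 did not.

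The hypoxia group held NK cells of wild-type C57BL/6 mice, taken from the spleen and grown for 7 days at 1% oxygen. The normoxia group held such cells grown for 7 days at 20% oxygen. Cultures of both groups had 5% CO2 and 1700 U/ml of recombinant human interleukin-2, and each group had 3 libraries numbered 1 to 3. The labels call these biological replicates and do not tell mice, pools and cultures apart, so a p-value here measures the spread between these libraries.

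Gelsolin family proteins bind actin filaments through repeated gelsolin-like domains. Several of them cut a filament and then stay on its fast-growing (barbed) end as a cap, in response to calcium, and are released from actin by the membrane lipid PIP2. In lymphocytes the actin cortex is reshaped when the cell migrates and when an NK cell forms its contact with a target cell.

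The promoters of the 3 members whose libraries were higher in hypoxia and that passed the test or, for Scin, led to the choice of the family, are shown because the comparison is of low with normal oxygen. The core of the hypoxia response element, to which HIF binds, can be written as ACGTG or GCGTG. Each sequence holds the 250 bases before a RefSeq transcription start (build GRCm38.p6), written 5′ to 3′ on the gene's strand, with capitals for either motif on either strand. RefSeq lists 3 starts for Gsn. The counts are per gene, so they do not tell which start was used.
Scin, chr12:40134229-40134478, minus strand: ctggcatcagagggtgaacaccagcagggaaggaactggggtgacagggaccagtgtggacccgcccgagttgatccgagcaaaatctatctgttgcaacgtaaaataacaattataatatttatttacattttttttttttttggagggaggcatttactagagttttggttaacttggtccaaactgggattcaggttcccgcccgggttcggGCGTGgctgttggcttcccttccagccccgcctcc
Gsn start 1, chr2:35256109-35256358, plus strand: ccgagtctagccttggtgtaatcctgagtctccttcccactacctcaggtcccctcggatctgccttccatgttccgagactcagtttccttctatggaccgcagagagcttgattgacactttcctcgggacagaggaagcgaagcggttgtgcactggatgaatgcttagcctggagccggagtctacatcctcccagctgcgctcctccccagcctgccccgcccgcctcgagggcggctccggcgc
Gsn start 2, chr2:35266494-35266743, plus strand: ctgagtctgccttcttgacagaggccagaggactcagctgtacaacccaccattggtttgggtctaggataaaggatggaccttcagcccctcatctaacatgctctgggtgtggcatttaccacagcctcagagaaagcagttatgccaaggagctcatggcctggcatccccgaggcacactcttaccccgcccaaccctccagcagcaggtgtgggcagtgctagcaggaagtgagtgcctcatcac
Gsn start 3, chr2:35282130-35282379, plus strand: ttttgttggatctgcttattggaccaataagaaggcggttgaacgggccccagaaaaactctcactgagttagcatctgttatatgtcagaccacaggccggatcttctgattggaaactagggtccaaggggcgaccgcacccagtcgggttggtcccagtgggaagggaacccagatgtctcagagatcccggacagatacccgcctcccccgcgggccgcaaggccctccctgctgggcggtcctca
Avil, chr10:127000459-127000708, plus strand: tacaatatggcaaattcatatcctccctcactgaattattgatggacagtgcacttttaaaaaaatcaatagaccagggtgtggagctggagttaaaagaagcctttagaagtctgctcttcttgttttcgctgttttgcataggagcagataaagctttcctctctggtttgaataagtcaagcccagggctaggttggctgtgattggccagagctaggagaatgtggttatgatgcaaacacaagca

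The Scin window held GCGTG once on the gene's strand, 35 to 31 bases before the start, and the printed Gsn and Avil windows held neither motif. Of the 9 windows of the 7 members matched in the table (all but Svil), 2 held either motif, the other being that of Flii with ACGTG on the opposite strand 163 to 159 bases before the start. Among all 32851 windows of this length, 28.2% held GCGTG, 16.6% held ACGTG and 38.6% held either, with the motifs counted on both strands. The CArG box, the binding motif of the serum response factor that drives many actin genes, was found before Vil1 alone of these members (1.47% of all windows), and the T-box motif AGGTGTGA before none of them (1.12%). A match is a run of letters, and no binding was measured.

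Totals ran from 55104810 to 55794698 estimated counts per library, so that 1 count was worth about 0.018 CPM, the usual scaling of a count to its library total. Levels are CPM scaled with TMM, as mean ± SD over 3 libraries per group, and each log2 fold change sets hypoxia over normoxia and has its standard error (SE). The edgeR quasi-likelihood test, after Benjamini-Hochberg adjustment at 0.05, called 20.9% of the 15591 genes tested, 1745 (11.2%) as higher under hypoxia and 1516 (9.72%) as lower. Scaling by library size alone gave 2384 higher and 998 lower, or 70.5% of calls higher in place of 53.5%, and moved the median of all tested genes' log2 fold changes to 0.077, against -0.005 with TMM. For 38.3% of tested genes the groups' libraries were fully separate, with hypoxia above for 19.6% and below for 18.7%. In bulk cultures, a change in the share of cells carrying an mRNA and a change in mRNA per cell cannot be told apart.

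In the hypoxia libraries, CPM was higher for the genes of the filament-cutting proteins adseverin (Scin, not tested) and gelsolin and of the villin relative advillin. It was lower for supervillin. The advillin and supervillin calls were lost in several fits with a library left out. Flightless I and the capping protein CapG were not called different. Of the 6 members tested besides Scin, 2 were higher (Gsn and Avil), 1 was lower (Svil) and 3 were not called (Capg, Flii and Vill), and the share of all genes called was 20.9% (11.2% higher and 9.72% lower). The libraries of the groups were fully separate for Gsn, Capg and Avil, with hypoxia above (19.6% of all tested genes), and for Svil, with hypoxia below (18.7%). The family was chosen on this same comparison, so nothing is read from these counts. The higher count was 1 without hypoxia replicates 1 or 3, without normoxia replicates 1 or 3 and with neither replicate 1 library, and 0 without normoxia replicate 2. The lower count was 0 without hypoxia replicates 1 or 2, without normoxia replicates 2 or 3 and after library-size scaling. When the fit had a block for the replicate number (replicate block), 3 were higher and 1 lower, against 39.2% of all genes called.

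**Figure D1:**
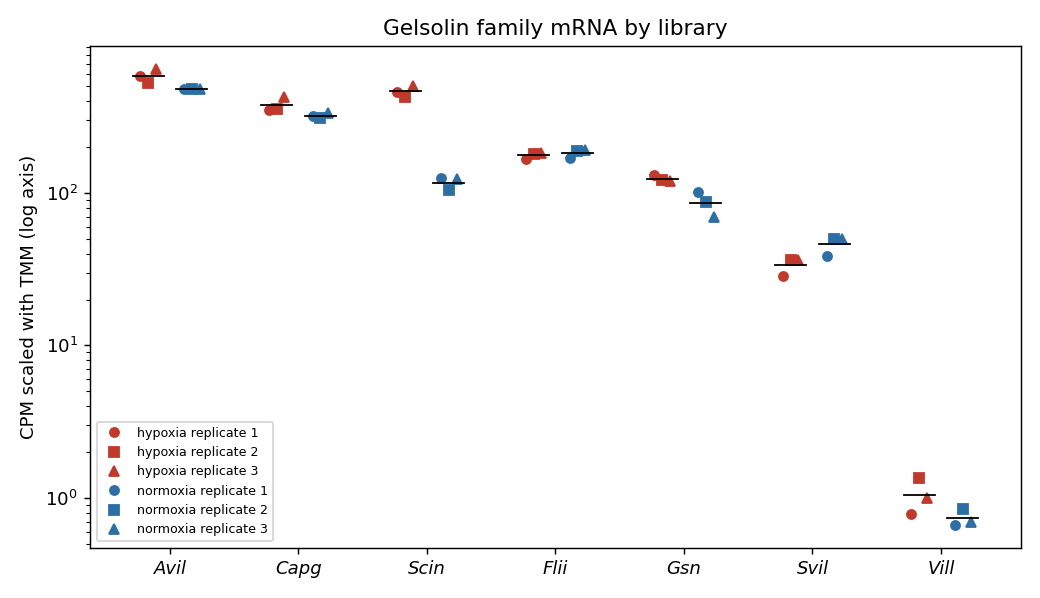
Level of each gelsolin family gene (CPM scaled with TMM, log axis) in the 3 hypoxia libraries (red) and the 3 normoxia libraries (blue), with a black line at the mean and a marker shape per replicate number. Scin stands between 423 and 506 CPM in hypoxia and between 104 and 125 CPM in normoxia, while the fitted log2 fold changes of the other members drawn lie between -0.46 and 0.53. Vil1 is left out because it had 0 to 2 counts per library.

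Scin encodes adseverin (scinderin), a calcium-dependent protein that cuts filaments and caps their barbed ends and that is known from secretory cells, where it loosens the actin layer under the membrane. It stood at 458, 423 and 506 CPM in hypoxia replicates 1, 2 and 3, against 125, 104 and 123 CPM in normoxia replicates 1, 2 and 3. All 3 hypoxia libraries lay above all 3 normoxia libraries, and the lowest hypoxia value was more than 3 times the highest normoxia value. The fitted log2 fold change was 1.98 (SE 0.10), or 3.95-fold, and the libraries of the same number differed by 1.87, 2.03 and 2.05 on the log2 scale. With any single library left out it lay between 1.90 and 2.05.

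Gsn encodes gelsolin, the founding member, which is made in a cytoplasmic form and a secreted plasma form. It stood at 132, 122 and 119 CPM in hypoxia, against 102, 87.8 and 69.0 CPM in normoxia. The groups did not overlap, and the normoxia libraries were more spread out than the hypoxia libraries. Gsn rose by 0.53 on the log2 scale (SE 0.13, and an edgeR adjusted p of 0.016), or 1.44-fold. Without normoxia replicate 2 the log2 fold change was also 0.53 and the edgeR adjusted p was 0.053. Gsn was the tested member whose library profile lay nearest to that of Scin, with a root mean square difference of 0.75 in mean-centred log2 CPM over the 6 libraries, and Svil was the farthest (1.24).

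Capg encodes CapG, which caps barbed ends without cutting filaments and is known for its abundance in macrophages. It stood at 351, 354 and 423 CPM in hypoxia, against 319.6, 309.9 and 332 CPM in normoxia. Every hypoxia library was above every normoxia library, with hypoxia replicate 3 set off from the other two. The log2 fold change of Capg was 0.23 (SE 0.09, 95% interval 0.03 to 0.43), and the edgeR adjusted p of 0.10 missed the threshold. With the replicate block the same log2 fold change had an edgeR adjusted p of 0.0071, and after library-size scaling it was 0.31 (edgeR adjusted p = 0.025). Without hypoxia replicate 3 it was 0.14 (edgeR adjusted p = 0.30), the lowest of the settings tried.

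Avil encodes advillin, a villin relative with a C-terminal headpiece domain that is best known from sensory neurons. It stood at 588, 526 and 652 CPM in hypoxia, against 483, 477 and 481 CPM in normoxia. The normoxia libraries lay within 6 CPM of each other, and all 3 hypoxia libraries were above them. Avil rose by 0.29 on the log2 scale (SE 0.09, and an edgeR adjusted p of 0.043), or 1.23-fold. The call was lost without hypoxia replicate 1 (edgeR adjusted p = 0.10), hypoxia replicate 3 (0.14), normoxia replicate 1 (0.054), normoxia replicate 2 (0.13) or normoxia replicate 3 (0.098), and with neither replicate 1 library (0.066). With the replicate block the edgeR adjusted p was 0.003.

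The Avil gene overlaps Tsfm, the gene of a mitochondrial translation elongation factor, on the opposite strand. In the GENCODE M21 transcripts, 4.05% of the 31-base words of Avil occur in Tsfm in reverse, and 0.0582% occur in another gene on the same strand (Vil1). The libraries are strand-specific per the labels, and whether the strand was used in counting is not given in the sources used here. Tsfm averaged 18.6 ± 1.20 CPM under hypoxia, against 22.9 ± 1.41 CPM in normoxia, and fell (log2 fold change -0.30, SE 0.08, and an edgeR adjusted p of 0.032). For the other members at most 1.13% of such words occurred in another gene on the same strand (Capg).

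Svil encodes supervillin, a large membrane-bound member that ties actin to myosin II and carries gelsolin-like repeats and a villin-type headpiece. It stood at 28.4, 36.3 and 36.2 CPM in hypoxia, against 38.7, 50.1 and 49.8 CPM in normoxia. The replicate 1 library was the lowest in each group, and the highest hypoxia value was still below the lowest normoxia value. Svil fell by 0.46 on the log2 scale (SE 0.13, and an edgeR adjusted p of 0.028), and the libraries of the same number differed by -0.45, -0.46 and -0.46. The call was lost without hypoxia replicate 1 (log2 fold change -0.35, edgeR adjusted p = 0.09), hypoxia replicate 2 (-0.50, 0.057), normoxia replicate 2 (-0.40, 0.10) or normoxia replicate 3 (-0.40, 0.081), and after library-size scaling (-0.38, 0.078). With the replicate block the edgeR adjusted p was 2.9e-05, and without both replicate 1 libraries it was 0.0021.

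Flii encodes flightless I, in which gelsolin-like repeats follow a leucine-rich repeat region and which also acts with nuclear receptors. It stood at 166, 181 and 184 CPM in hypoxia, against 169, 189.7 and 192 CPM in normoxia. The groups overlapped, and replicate 1 was again the lowest in each. The log2 fold change of Flii was -0.05 (SE 0.08, 95% interval -0.23 to 0.13, edgeR adjusted p = 0.71), and it was 0.03 after library-size scaling. Flii shares 0.679% of its 31-base words in reverse with Llgl1, an overlapping gene on the opposite strand that rose (log2 fold change 0.28, SE 0.07, and an edgeR adjusted p of 0.020). The difference between Svil and Flii was not tested.

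The villins proper were rare or not measurable. Vil1, the gene of the brush border protein villin, had 0, 1 and 0 counts in hypoxia and 2, 1 and 2 counts in normoxia, which is within the floor of 3 counts per library and gives no fold change. Vill, the villin-like gene, had 45, 78 and 56 counts in hypoxia and 35, 47 and 38 counts in normoxia. This is 1.05 ± 0.284 CPM in hypoxia and 0.737 ± 0.0994 CPM in normoxia, and the groups overlapped. The log2 fold change of Vill was 0.50 (SE 0.25, 95% interval -0.06 to 1.06, edgeR adjusted p = 0.19).

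**Figure D2:**
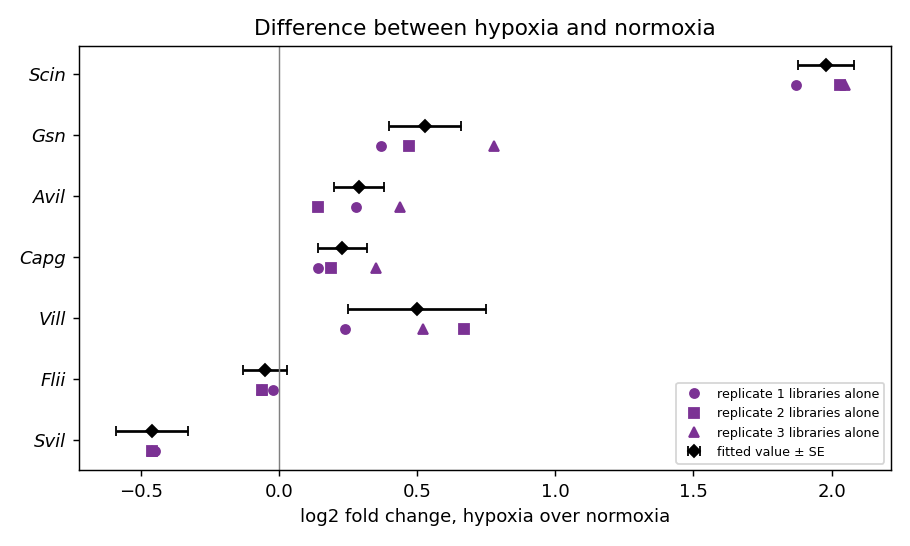
Log2 fold change of each member, hypoxia over normoxia, as the fitted value with its standard error (black diamonds) and as the ratio of the libraries that share a replicate number (purple). Scin lies at 1.98, Gsn at 0.53 and Svil at -0.46, and the 3 pairs of each member stand on one side of 0, those of Flii between -0.06 and -0.02.

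Set against transcript length, Capg and Avil had the highest levels of the family in both groups, and Scin came next in hypoxia only. In CPM per kilobase of the longest coding transcript, the order in hypoxia was Capg (269 ± 29.2), Avil (194 ± 20.7), Scin (154 ± 13.9), Gsn (46.9 ± 2.73), Flii (43.6 ± 2.32), Svil (4.25 ± 0.574) and Vill (0.359 ± 0.0978). In normoxia it was Capg (229 ± 8.03), Avil (158 ± 1.03), Flii (45.2 ± 3.15), Scin (39.1 ± 3.93), Gsn (32.6 ± 6.30), Svil (5.84 ± 0.818) and Vill (0.253 ± 0.0342). Neighbours whose libraries overlapped were Gsn and Flii in hypoxia, and Flii, Scin and Gsn in normoxia. With the median length of the coding transcripts the order in hypoxia was the same, and in normoxia Gsn stood above Flii and Flii above Scin.

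Scin made up 22.1%, 21.3% and 21.6% of the family's summed CPM per kilobase in hypoxia, against 8.13%, 6.93% and 7.92% in normoxia. The share of Capg was 37.7% ± 1.31 in hypoxia and 44.9% ± 0.922 in normoxia, and that of Avil was 28.0%, 26.1% and 27.5% in hypoxia, against 30.9%, 31.5% and 30.7% in normoxia. Per kilobase, there were 0.797 ± 0.0156 Scin for each Avil in hypoxia and 0.247 ± 0.0233 in normoxia. The summed level of the family was 712 ± 61.4 CPM per kilobase in hypoxia and 510.2 ± 9.37 in normoxia, and without Scin it was 558 ± 47.8 and 471 ± 5.62 CPM per kilobase in hypoxia and normoxia. The 2 main actin genes Actb and Actg1 together stood at 5097 ± 233 CPM per kilobase in hypoxia and 6129 ± 523 in normoxia. For every 100 CPM per kilobase of these actins the family had 14.1, 13.3 and 14.6 in the hypoxia libraries, against 7.66, 8.71 and 8.71 in the normoxia libraries. With the median transcript length the share of Scin was 14.6%, 14.1% and 14.3% in hypoxia, against 5.10%, 4.36% and 5.00% in normoxia. On that length there were 0.466 ± 0.00913 Scin for each Avil in hypoxia and 0.144 ± 0.0136 in normoxia, and the summed level of the family was 1143 ± 100.4 CPM per kilobase in hypoxia and 859.8 ± 15.4 in normoxia. The family then had 11.3, 10.6 and 11.7 for every 100 CPM per kilobase of the actins in the hypoxia libraries, against 6.50, 7.38 and 7.34 in the normoxia libraries. These shares and sums carry the Scin difference for which the family was chosen.

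**Figure D3:**
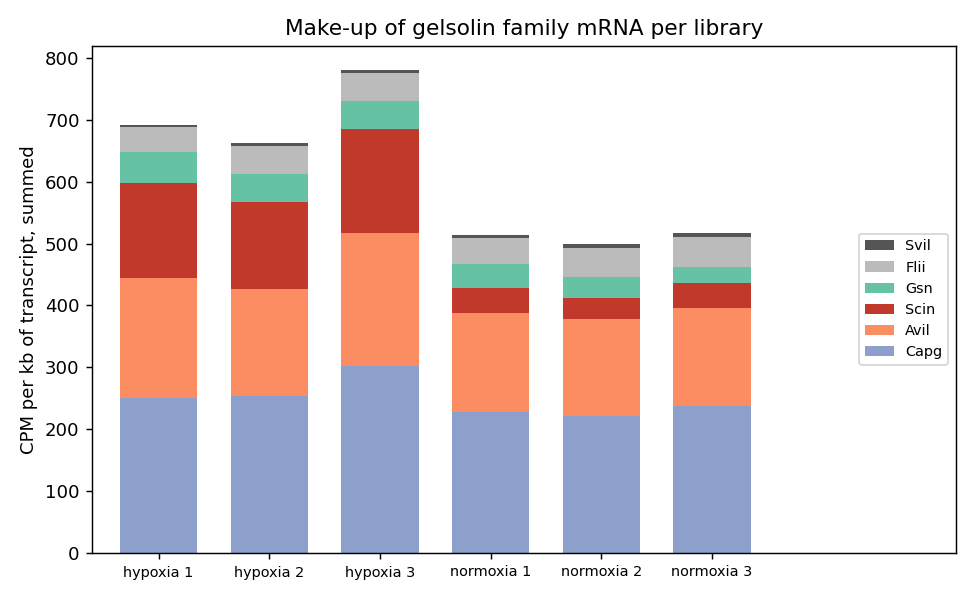
Stacked levels of 6 gelsolin family genes per library, in CPM per kilobase of the longest coding transcript, for the 3 hypoxia and the 3 normoxia libraries. The red Scin block takes about 22% of the column in hypoxia and 7% to 8% in normoxia, and Capg and Avil are the largest blocks in every library. Vill and Vil1 are too low to draw.

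Other actin regulators were compared through 8 lists with 112 genes, of which 99 were tested. Of these, 11 were higher and 10 lower (21.2% called, against 20.9% of all tested genes), and their median log2 fold change was 0.00, against -0.01 over all tested genes. With the replicate block 25 were higher and 23 lower, and after library-size scaling 20 and 5. The calls over all tested genes moved too, to 39.2% with the replicate block and to 2384 higher and 998 lower after library-size scaling. The block counts of each list below stand beside that 39.2%. The lower count of the actin regulators was 4 without hypoxia replicate 1 or 2 and 6 without hypoxia replicate 3 or normoxia replicate 2.

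The actins and their monomer-binding proteins had 9 tested genes, of which 1 was called, as lower. The replicate block gave 2 higher and 4 lower. Actg1, the gene of cytoplasmic gamma actin, fell to 4569 ± 135 CPM under hypoxia, against 5732 ± 595 CPM in normoxia (log2 fold change -0.33, SE 0.09, and an edgeR adjusted p of 0.030). Its edgeR adjusted p was 0.075 without hypoxia replicate 1, 0.12 without hypoxia replicate 2, 0.057 without normoxia replicate 1 and 0.092 without both replicate 1 libraries. Actb, the gene of beta actin, had a log2 fold change of -0.21 (SE 0.09, and an edgeR adjusted p of 0.11, or 0.022 with the replicate block).

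Of 21 tested genes of the cofilin family and filament disassembly, 1 was higher and 2 were lower, with a median log2 fold change of -0.02. The replicate block gave 4 higher and 5 lower. The member that rose was Dstn, the gene of destrin, a close relative of cofilin that also takes filaments apart, averaging 36.9 ± 2.34 CPM under hypoxia, against 23.6 ± 2.71 CPM in normoxia (log2 fold change 0.65, SE 0.10, and an edgeR adjusted p of 0.0015). Ssh3, a cofilin phosphatase gene, fell by 0.34 on the log2 scale (edgeR adjusted p = 0.011, and 0.055 without normoxia replicate 2). Coro2a, a coronin gene, fell by 0.29 (edgeR adjusted p = 0.022), a call lost without hypoxia replicate 1 (0.056), 2 (0.14) or 3 (0.05), or without normoxia replicate 3 (0.066). After library-size scaling neither was called (edgeR adjusted p = 0.057 for Ssh3 and 0.053 for Coro2a). Cfl1, the gene of cofilin, averaged 1160.2 ± 84.9 CPM under hypoxia, against 1178 ± 139 CPM in normoxia (edgeR adjusted p = 0.91). Coro1a, the gene of coronin 1A, had a log2 fold change of -0.18 (SE 0.09, and an edgeR adjusted p of 0.17, or 0.017 with the replicate block).

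Of 13 tested genes of filament end capping, 1 was higher and 3 were lower (3 and 4 with the replicate block). Carmil1, which encodes a regulator that pulls capping protein off filament ends, rose to 10.5 ± 1.19 CPM in hypoxia, against 4.39 ± 0.529 CPM in normoxia (log2 fold change 1.26, SE 0.13, and an edgeR adjusted p of 0.00020). Eps8, which encodes another barbed-end capping protein, fell to 0.234 ± 0.0727 CPM in hypoxia, against 0.736 ± 0.193 CPM in normoxia (log2 fold change -1.65, SE 0.32, and an edgeR adjusted p of 0.0059). Its counts were 9, 14 and 17 in hypoxia and 33, 53 and 34 in normoxia, so its normoxia libraries carried it past the filter on low counts. Eps8 was not tested with a filter of at least 1 CPM in 3 libraries. The adducin genes Add3 and Add1 fell by 0.33 and 0.28 on the log2 scale (edgeR adjusted p = 0.016 and 0.039). The Add3 call was lost without hypoxia replicate 1 or 2 (0.052 each). The Add1 call was lost without any single library but normoxia replicate 3 (0.071 to 0.14), without both replicate 1 libraries (0.061) and after library-size scaling (0.10). The heterodimeric capping protein genes Capza1 and Capzb had log2 fold changes of -0.08 and 0.12 and were not called (edgeR adjusted p = 0.63 and 0.34).

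None of 10 tested genes of the Arp2/3 complex, which starts branched filaments, was called by edgeR (0 higher and 0 lower), with 3 at an unadjusted p under 0.05, and 0 were called by the DESeq2 Wald test or by limma-voom. With the replicate block edgeR called 3 higher and 1 lower, after library-size scaling it called 3 higher, and without both replicate 1 libraries 1 higher. Actr3 and Actr2, its actin-related subunits, had log2 fold changes of -0.20 (edgeR adjusted p = 0.14, or 0.013 with the replicate block) and 0.09 (0.51). Of 15 tested genes that switch the complex on, 3 were higher and 1 was lower (4 and 2 with the replicate block). Cttn, the gene of cortactin, rose to 0.858 ± 0.156 CPM in hypoxia, against 0.172 ± 0.056 CPM in normoxia (log2 fold change 2.30, SE 0.31, and an edgeR adjusted p of 0.00083). Its counts were 48, 59 and 40 in hypoxia and 10, 12 and 6 in normoxia, so its hypoxia libraries carried it past the filter on low counts. Cttn was not tested with a filter of at least 1 CPM in 3 libraries. The WAVE complex genes Nckap1 and Abi3 rose by 0.53 and 0.22 on the log2 scale (edgeR adjusted p = 0.0014 and 0.034). The Abi3 call was lost without any single library but normoxia replicate 1 (0.073 to 0.12) and with no filter on low counts (0.14). Cyfip2, another WAVE complex gene, fell by 0.25 on the log2 scale (edgeR adjusted p = 0.034), a call that was lost when any 1 of the 6 libraries was left out (edgeR adjusted p of 0.058 to 0.17), without both replicate 1 libraries (0.052), after library-size scaling (0.086) or with no filter on low counts (0.052). Wipf1, the gene of the WASP-interacting protein, had a log2 fold change of -0.01.

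Of 10 tested formin genes, whose products start and extend unbranched filaments, 2 were higher and 2 lower (3 and 2 with the replicate block). Fmnl2 rose to 1.45 ± 0.462 CPM in hypoxia, against 0.471 ± 0.196 CPM in normoxia (log2 fold change 1.61, SE 0.34, and an edgeR adjusted p of 0.0090), and Fmnl3 rose by 0.45 (edgeR adjusted p = 0.0062). Diaph3 fell by 0.42 on the log2 scale (edgeR adjusted p = 0.0031), and Fmnl1 fell to 375 ± 11.3 CPM under hypoxia, against 449 ± 22.7 CPM in normoxia (edgeR adjusted p = 0.036). The Fmnl1 call was lost without hypoxia replicates 1, 2 or 3 (edgeR adjusted p = 0.12, 0.13 and 0.075), without normoxia replicates 2 or 3 (0.14 and 0.069) and after library-size scaling (0.13). Diaph1 had a log2 fold change of -0.10 (edgeR adjusted p = 0.37).

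Of 12 tested genes of bundling and crosslinking proteins, 3 were higher and 1 was lower, Swap70 (log2 fold change -0.42, edgeR adjusted p = 0.0023). The replicate block gave 4 higher and 3 lower. Actn1, the gene of alpha-actinin 1, rose to 10.3 ± 0.863 CPM in hypoxia, against 4.17 ± 0.294 CPM in normoxia (log2 fold change 1.31, SE 0.11, and an edgeR adjusted p of 6.6e-05), and Actn2 rose by 1.44 (SE 0.30, and an edgeR adjusted p of 0.0082) at under 1 CPM. Espn, the gene of the bundling protein espin, rose by 1.12 (SE 0.31, and an edgeR adjusted p of 0.031), a call that was lost without hypoxia replicate 1 (0.051), hypoxia replicate 2 (0.11), normoxia replicate 1 (0.056) or normoxia replicate 3 (0.088), and with neither replicate 1 library (0.069). The abundant Lcp1, the gene of L-plastin, and Flna, the gene of filamin A, had log2 fold changes of -0.13 and -0.21 and were not called (edgeR adjusted p = 0.32 and 0.18). Flna was called under the replicate block (edgeR adjusted p = 0.0078). Of 9 tested genes of phosphoinositide enzymes (PIP2 kinases, phospholipases C gamma and the lipid phosphatase gene Inpp5d), 1 was called, as higher, and with the replicate block 2 were higher and 2 lower. It was Plcg1, the gene of phospholipase C gamma 1, with a log2 fold change of 0.70 (SE 0.16, and an edgeR adjusted p of 0.015, and 0.053 without hypoxia replicate 2). Inpp5d, whose product SHIP1 acts on PIP3 and not on PIP2, and Plcg2, a phospholipase gene, which had the highest CPM of these, each had a log2 fold change of 0.05.

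**Figure D4:**
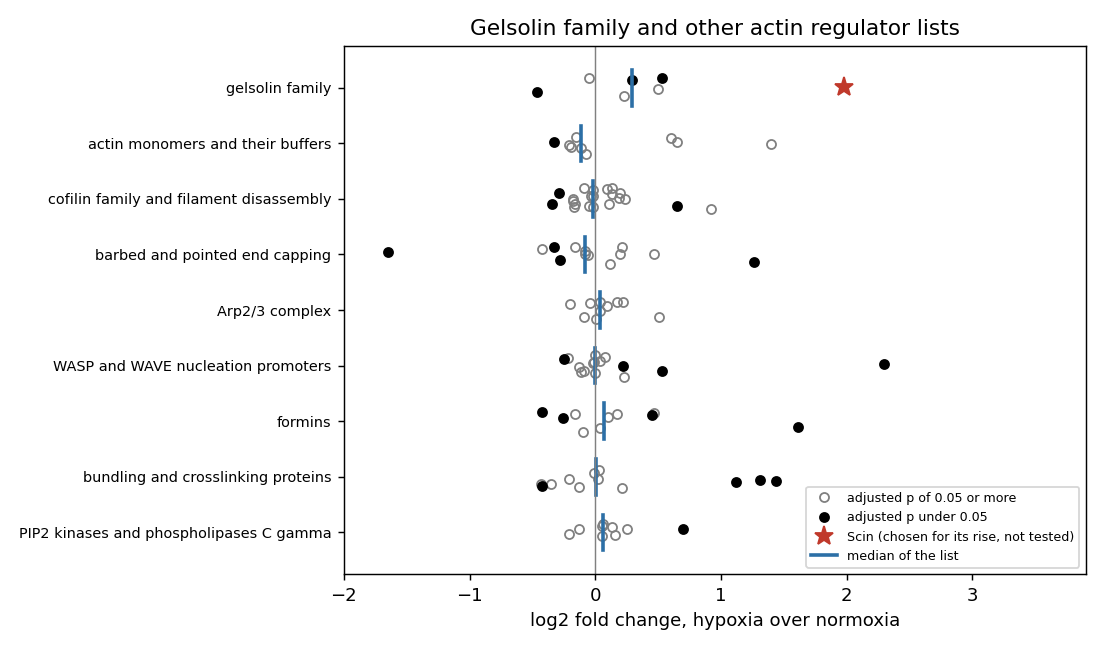
Log2 fold change, hypoxia over normoxia, of each tested gene of the gelsolin family and of 8 other actin regulator lists. Filled points passed the edgeR test at an adjusted p under 0.05, open points did not, the blue bar is the median of the list and the red star is Scin. Scin, for whose rise the family was chosen, lies at 1.98, and the other members run from -0.46 to 0.53. The medians of the other lists lie between -0.11 and 0.07, and their genes run from -1.65 to 2.30.

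Among 4316 tested genes with a symbol and a mean of at least 50 CPM, the 5 whose library profile lay nearest to that of Scin were Mcpt8, Cd7, Adgrg1, Gm2a and Egln3. Likeness was the root mean square difference in mean-centred log2 CPM over the 6 libraries, which was 0.152, 0.219, 0.287, 0.305 and 0.319 for these genes and 1.02 for the median candidate. Mcpt8, which encodes a granule protease known from basophils, stood at 87.1, 74.3 and 77.8 CPM in hypoxia, against 25.9, 18.6 and 19.0 CPM in normoxia. Egln3, which encodes an oxygen-sensing prolyl hydroxylase that is itself a target of HIF, stood at 336, 304 and 319 CPM in hypoxia, against 156, 96.1 and 107 CPM in normoxia. Cd7, a receptor gene of T and NK cells, averaged 252 ± 10.9 CPM under hypoxia, against 76.8 ± 18.6 CPM in normoxia. Adgrg1, the gene of the adhesion receptor GPR56, averaged 145 ± 18.7 CPM under hypoxia, against 53.1 ± 4.94 CPM in normoxia. Gm2a, the gene of the GM2 ganglioside activator, averaged 105 ± 2.08 CPM under hypoxia, against 38.6 ± 6.80 CPM in normoxia. All 5 were picked for their likeness to Scin, so their differences are a description.

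**Figure D5:**
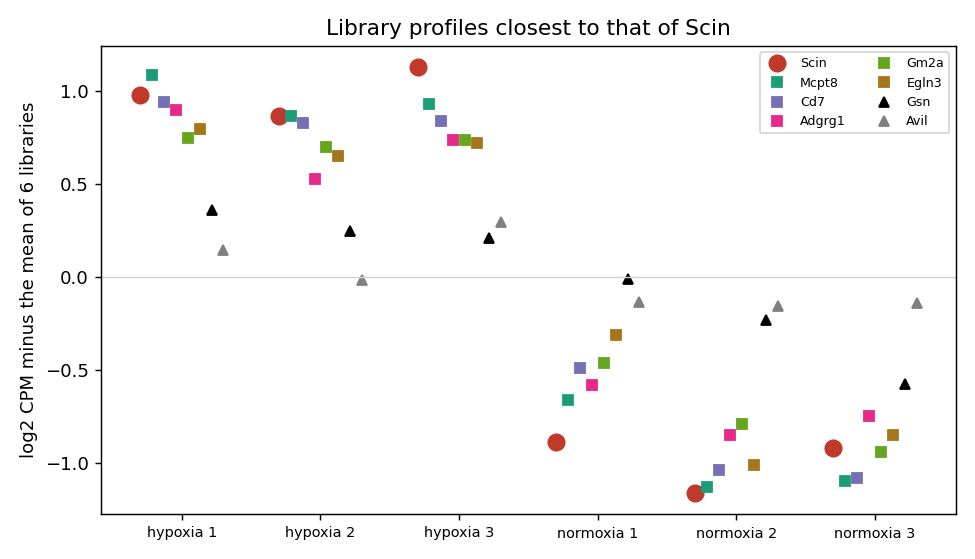
Log2 CPM minus the mean over the 6 libraries, for Scin (red circles), the 5 genes with the nearest profile (squares) and the members Gsn and Avil (triangles), in the 3 hypoxia and the 3 normoxia libraries. Scin runs from 0.87 to 1.13 in hypoxia and from -1.16 to -0.89 in normoxia, and Gsn and Avil stay closer to 0.

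Markers of NK cells were abundant in every library, summing to 17406 to 20385 CPM over 10 genes in hypoxia, against 19018 to 20866 CPM in normoxia, with Gzmb and Il2rb the highest by CPM. Of them 1 was called, Eomes, as lower, and with the replicate block 2 were higher and 5 lower, Il2rb among the lower. Over all tested genes 20.9% were called (11.2% higher and 9.72% lower), or 39.2% with the replicate block. Scin is known from mast cells and megakaryocytes, and other members from macrophages and epithelium, so markers of these cells are given beside it. The mast cell and basophil list summed to 77.1 to 91.0 CPM under hypoxia, against 20.3 to 29.1 CPM in normoxia, nearly all of it Mcpt8. Of its 4 tested genes, Mcpt8 and Cpa3 were higher. The other 2, Cma1 (log2 fold change -0.64, edgeR adjusted p = 0.097) and Hdc (-0.11, 0.85), were not called. The replicate block gave 2 higher and 1 lower, Cma1 (edgeR adjusted p = 0.03). The receptor markers Ms4a2 and Fcer1a had 0 or 1 count in every library, and Tpsb2 had 0. The megakaryocyte list summed to 1.64 to 1.89 CPM in hypoxia and at most 1.5 CPM in normoxia, mainly Itga2b, with 0 of 1 tested genes called by edgeR (0 at an unadjusted p under 0.05). Next came Ppbp in hypoxia (0.164 CPM, against 0.0251 CPM in normoxia) and Pf4 in normoxia (0.0614 CPM, against 0.0701 CPM in hypoxia), both too low to be tested.

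The macrophage list summed to 50.8 to 83.6 CPM in hypoxia and 15.5 to 29.2 CPM in normoxia. Of its 4 tested genes 2 were higher (Cd68 and Lyz2) and 1 was lower (Cd14), Adgre1 had 0 or 1 count per library and C1qa had 0. Lyz2 had 11, 22 and 20 counts in hypoxia and 0 in every normoxia library. It passed the filter on low counts through hypoxia alone, so nothing is read from its call. The epithelial list summed to 299.6 to 320.1 CPM in hypoxia and 185 to 241 CPM in normoxia. It was carried by Cdh1 and Epcam, which both rose, while the keratin gene Krt8 had 0 to 2 counts. The T cell list summed to 148 to 186 CPM under hypoxia, against 92.8 to 109 CPM in normoxia, with 3 of 6 tested genes higher (Cd3d, Cd3g and Cd4). The counts of all these lists stand beside 11.2% of all tested genes called higher and 9.72% called lower. Lists of B cells, neutrophils, dendritic cells and fibroblasts each summed to under 2 CPM in every library. Of their 1, 2, 1 and 2 tested genes, 1, 2, 1 and 0 were higher and 0 were lower. The neutrophil genes S100a8 (10, 38 and 24 counts in hypoxia) and S100a9 (13, 40 and 21) had 0 or 1 count in each normoxia library. They too passed the filter through hypoxia alone. The genes of these lists with the highest CPM were Cd79b and Cd79a, S100a9 and S100a8, Xcr1 and Siglech, and Col1a2 and Col1a1. The part of these other markers in the differences of the gelsolin family was not tested.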

How the data were processed

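RNA of 3 hypoxia and 3 normoxia cultures was made into strand-specific mRNA libraries, per the labels' protocols. The submitters' processing notes name Trim Galore 0.6.4, kallisto 0.4.6, edgeR 3.17 and the build GRCm39. The authors deposited an estimated count per Ensembl gene, not normalized, and a log2 CPM value, which equals the log2 CPM that edgeR computes from these counts with a prior count of 2 (largest difference 0) and was not used further. Symbols and transcript lengths came from GENCODE M21 (GRCm38), which named 52029 of 56953 IDs. For the counting, the sources used here give neither the annotation release nor the strand setting.

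Estimated counts were rounded, filtered with filterByExpr (minimum count 10, minimum total 15), scaled with TMM and tested by quasi-likelihood in edgeR 4.0.16, with no covariate, and p-values were adjusted over all 15591 tested genes at a threshold of 0.05. Alternatives used limma 3.58.1, DESeq2 1.42.0, other scalings and filters, a replicate block and left-out libraries. With 55104810 to 55794698 counts in a library, 1 count is worth about 0.018 CPM.

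The members, lists and settings were chosen with earlier results of these data known. Named genes were all members, the 2 most abundant genes of each actin list and each called gene of these lists with an absolute log2 fold change of at least 1, the 5 genes nearest to Scin, and the 2 most abundant genes of each cell type list. Other genes were named after their values were seen. Libraries share replicate numbers in the labels. After group means were subtracted, libraries with one number correlated at 0.47, 0.33 and 0.30 over 15591 genes, all above 0.1, so the numbers were taken to pair the libraries. Libraries with different numbers correlated at -0.35 to 0.12, and the highest of these, hypoxia replicate 2 with normoxia replicate 3, was also above 0.1. The reported tests remain those without the block, and values with the block are given where they change a call or a count. The fits with libraries left out also had no block, so leaving out a single library left its partner of the same number unpaired. No library was a copy of another, since chi-square per gene within groups was 12.4 to 59.2.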

Additional observations from a re-analysis of the deposited data

How the results depend on the processing

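The Scin log2 fold change lay between 1.90 and 2.06 in all 14 other settings. With single libraries left out, members higher other than Scin numbered 0 to 2 and members lower 0 to 1, actin regulators higher 8 to 12 and lower 4 to 8, and all genes higher 1146 to 1980 and lower 804 to 1636 (1160 and 804 without hypoxia replicate 2, 1146 and 942 without normoxia replicate 2). The log2 fold changes then ran from 0.38 to 0.66 for Gsn, -0.57 to -0.35 for Svil, 0.22 to 0.38 for Avil and 0.14 to 0.28 for Capg. Scaling by library size gave 0 members lower, 20 actin regulators higher and 5 lower, 998 of all genes lower, and log2 fold changes of 0.31 for Capg (called) and -0.38 for Svil (not called). The replicate block gave 25 and 23 actin regulators and 2988 and 3120 of all genes higher and lower, called Capg (0.23) and changed no other call among the members. Without both replicate 1 libraries 1 member was higher, and Avil (0.30) was not called. Flii, not called in any setting, had a log2 fold change of 0.03 with scaling by library size. With the median coding transcript length, mean levels over the 6 libraries were 75.0 CPM per kilobase for Gsn in place of 39.7, 454 for Capg in place of 249, 319.5 for Avil in place of 176 and 0.583 for Vill in place of 0.306, since that length is shorter. For the other results that changed the cause was not tested. Vil1, at 0 to 2 counts per library, is below what this depth can compare.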
